A study of Mus musculus with 14 samples.

Results

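The genes described here are the conjugating transferases of the mouse liver, 42 of the 17656 genes measured. The rule that chose them uses gene symbols and no measured value, and they comprise 22 genes of soluble glutathione S-transferases (GSTs; classes alpha, mu, pi, theta, omega, zeta and kappa) and 20 genes of UDP-glucuronosyltransferases and related enzymes (UGTs; families 1A, 2A, 2B and 3A). Liver RNA of 14 mice, 1 library per mouse, was sequenced in 4 groups. Wild-type (WT) mice received saline (3 mice) or concanavalin A (ConA, 4 mice), and mice labelled as Ythdf1 knockout, here KO, received saline (3 mice) or ConA (4 mice). ConA is a plant lectin that activates T cells and causes immune-mediated hepatitis in mice. It was injected into the tail vein at 8 mg/kg, and the livers were taken 8 h after ConA or saline. The mice were 8 weeks old and of the C57BL/6 background. Ythdf1 encodes a reader protein of N6-methyladenosine (m6A) marks in mRNA. The KO line was made with CRISPR/Cas9 and is not restricted to a cell type, so that hepatocytes, endothelial cells and leukocytes are all meant to lack the gene.

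GSTs and UGTs act in the second phase of detoxification. GSTs join the tripeptide glutathione to electrophilic compounds, and UGTs join glucuronic acid from UDP-glucuronic acid to bilirubin, bile acids, steroids, thyroid hormones and drugs, whereas the UGT3A enzymes use other sugars. The conjugates are water-soluble and are pumped into bile or blood by ABC transporters. In liver these genes are controlled by nuclear receptors such as CAR and PXR, by the hepatocyte factors HNF1 and HNF4, and by the stress-responsive factors Nrf2 and AhR, and inflammation is known to lower many drug-metabolizing enzymes.

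The values are TPM, a level per length of transcript and a share of the summed transcripts of its library, so that a gene falls when other RNAs take a larger share. A gene was called where limma, applied to log2(TPM + 1), gave an adjusted p under 0.05. Ythdf1 itself had 12.03–13.9 TPM in WT livers given saline and 18.7–25.6 TPM in those given ConA, against 18.4–20.8 and 15.5–26.2 TPM in KO livers. It was thus not lower in the libraries labelled knockout, and with saline each KO liver was above each WT liver. The level over the whole gene does not check a deletion of part of the gene. The study reports genotyping of the line from tail samples. WT saline replicates 2 and 3 were more alike than any of the other 17 pairs within a group (median size of the log2 ratio over the 100 most variable genes 0.116 against 0.244 to 1.81). For counts of calls against WT saline, a second count is given in which the mean of this pair stands as 1 library. The third replicates of both ConA groups gave lower values for longer transcripts. In WT ConA replicate 3 the median log2 difference from the other 3 libraries was 0.07 for transcripts under 1500 bases and -0.56 for those of 6000 bases or more, and it was 0.44 over the GST genes (median transcript length 1142 bases) and -0.89 over the UGT genes (2244 bases). In KO ConA replicate 3 these differences were 0.04, -0.49, 0.56 and -0.22. For transcripts of 1500 to 3000 bases the difference was -0.19 in WT ConA replicate 3 and -0.18 in KO ConA replicate 3. In WT ConA replicate 4 it was -0.08 under 1500 bases, 0.17 at 6000 bases or more, -0.71 over the GST genes and 0.24 over the UGT genes. The part of transcript length in the GST and UGT values was not tested. The Y-linked genes Ddx3y and Eif2s3y had at most 0.02 and 0.07 TPM in any library, and Uty 0.87 to 2.12 TPM. The study describes male mice.

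Of the 42 genes, 35 passed the filter of 1 TPM in at least 1 comparison. The 7 that never did were Gstt4 (at most 0.16 TPM), Gsto2 (0.37), Ugt1a2 (0.20), Ugt1a7c (0.51), Ugt1a10 (1.60), Ugt2a1 (0.80) and Ugt2a2 (0.66). Together the 42 genes made up 1.19% of all TPM in WT saline livers and 0.535% in WT ConA livers. In KO livers the share was 1.33% with saline and 0.438% with ConA. The GST genes had the larger part of it, with a summed 8320–8758 TPM in WT saline against 3238–3468 TPM for the UGT genes. The most abundant single genes of WT saline livers were Gstm1 at 2586 ± 137 (SD, n = 3) TPM, Gsta3 at 1567 ± 235 (SD, n = 3) TPM and Gstp1 at 1096 ± 249.6 (SD, n = 3) TPM among the GSTs, and Ugt1a6b at 778 ± 63.9 (SD, n = 3) TPM, Ugt2b5 at 653 ± 61.6 (SD, n = 3) TPM and Ugt2b36 at 587 ± 31.8 (SD, n = 3) TPM among the UGTs. The ranges of neighbours in the order of these UGTs overlapped (Ugt1a6b 705–821, Ugt2b5 603–722 and Ugt2b36 554–618 TPM), so their order is not fixed by these 3 mice.

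To see how acute hepatitis changed the conjugating enzymes, ConA was compared with saline in each genotype. ConA lowered most of the transferases in both. In WT livers 26 of the 35 genes tested were lower after ConA and 2 were higher (Gstp2 and Ugt2b38), beside 31.0% of all 10768 genes tested that were called lower and 22.0% that were called higher. The median log2 fold change of the 35 genes was -1.31, against -0.07 over all genes tested. With WT saline replicates 2 and 3 averaged, 22 were lower and 1, Gstp2, was higher, beside 24.9% and 17.1% of all genes. In KO livers 29 of 35 were lower and 0 were higher, beside 30.7% of all 10988 genes called lower and 33.9% called higher, with a median of -1.31 against 0.07 over all genes. The groups did not overlap, with each ConA library under each saline library, for 27 of the 35 genes in WT (34.7% of all genes) and for 28 in KO (31.5%). By summed level the UGT2B, UGT2A and alpha classes fell furthest in WT and the mu, theta and UGT2B classes in KO, and the pi class did not fall in WT. Markers of hepatocytes fell at the same time. The summed TPM of 9 hepatocyte markers was 139363–162472 in WT saline and 68170–93768 in WT ConA, and 143900–173930 and 60296–74126 in the KO groups. In each genotype 7 of these 9 markers were lower, among them Ttr, Apoa2 and Hpd, and the count in WT was 7 with the pair averaged too. The sum of 8 neutrophil markers rose from 9.57–11.2 to 320.1–562 TPM in WT and from 5.42–10.99 to 415–957 TPM in KO, with 7 of 8 called higher in each (7 in WT with the pair averaged). In bulk tissue, fewer hepatocytes and less of an mRNA per hepatocyte cannot be told apart, and the part of these shifts in the results was not tested. The median log2 fold change of the 9 hepatocyte markers was -0.71 in WT and -0.98 in KO. Of the other marker lists, 7 of 8 Kupffer cell markers were lower in WT (sums of 89.7–154 and 12.9–54.7 TPM) and 3 of 8 in KO (40.6–93.2 and 9.43–42 TPM). Of the sinusoidal endothelial markers, 2 of 7 were lower and 1 higher in WT and 5 of 8 lower and 1 higher in KO, and of the stellate cell markers 1 of 2 was lower in WT and 5 of 6 in KO. Of the cholangiocyte markers, 3 of 5 were higher and 1 lower in WT and 1 of 6 higher and 1 lower in KO. With the pair averaged, 2 of 6 cholangiocyte markers were higher and 1 lower in WT, and 7 of 8 Kupffer cell, 2 of 7 endothelial and 1 of 3 stellate cell markers were lower. The 8 cholangiocyte markers summed to 10.9 to 23.9 TPM and the 7 T cell markers to 1.17 to 6.08 TPM over all 14 livers.

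**Figure D1:**
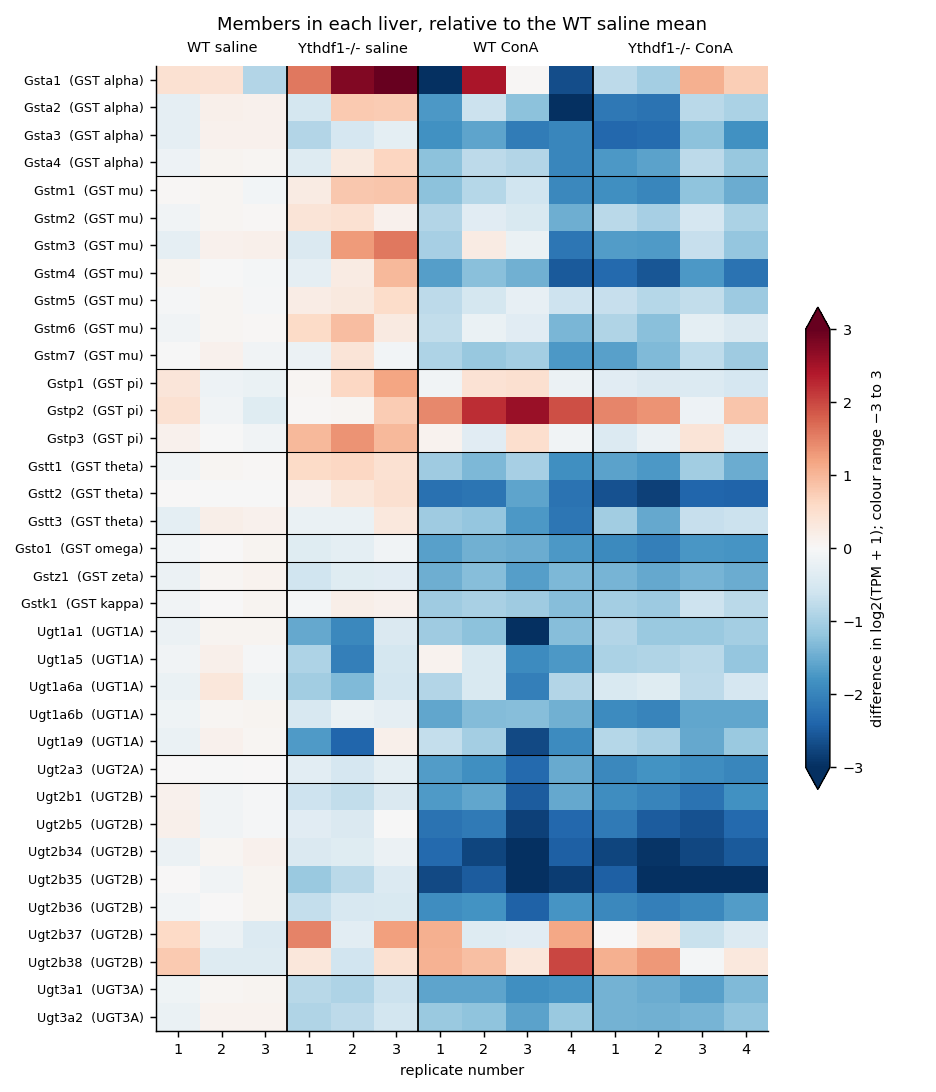
Difference in log2(TPM + 1) between each liver and the WT saline mean for the 35 genes tested (rows, by class), with the 14 libraries as columns and the Ythdf1-/- label standing for KO; the colour scale ends at -3 and 3. After ConA most rows are blue in both genotypes, with Gstp2 and Ugt2b38 red in most WT ConA livers, and in the KO saline livers many GST mu, pi and theta rows are red while most UGT rows are blue.

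The alpha class detoxifies lipid peroxidation products and is abundant in hepatocytes. Its summed level fell from 1996 ± 286 (SD, n = 3) to 616 ± 150.1 (SD, n = 4) TPM in WT, which is 3.24-fold, and from 1669 ± 439 (SD, n = 3) to 606 ± 239.6 (SD, n = 4) TPM in KO, which is 2.76-fold. Gsta3, whose enzyme detoxifies the epoxide of aflatoxin B1 in mice, made up 61.6 to 84.7% of the class in each of the 14 libraries. It had 1296, 1694 and 1713 TPM in WT saline livers, and 441, 522, 362 and 403 TPM after ConA. The groups were far apart (log2 fold change -1.86, SE 0.16, adjusted p 1.82e-05). In KO livers it had 851, 1105 and 1268 TPM with saline and 302, 315, 666 and 437 TPM with ConA, again without overlap (log2 fold change -1.38, SE 0.25, adjusted p 0.000684). Gsta4, which acts on 4-hydroxynonenal, fell in WT (-1.21, adjusted p 0.00333) and in KO (-1.49, 0.000512). Gsta2 fell in both as well (-1.703, 0.0176 and -1.88, 0.00201), and in WT the call was lost with the alike saline pair averaged (adjusted p 0.0565).

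Gsta1 varied widely between mice of 1 group. It had 12.4, 12.1 and 4.26 TPM in WT saline, 27.9, 65.7 and 79.7 in KO saline, 0, 52.3, 8.96 and 0.55 in WT ConA, where 1 liver was listed at 0, and 4.69, 3.84, 19.5 and 15.4 in KO ConA. The 4 WT ConA livers ranged from below each saline liver to above each WT saline liver, and the difference in WT was not called (log2 fold change -0.86, SE 1.19, adjusted p 0.57), while the fall in KO was (log2 fold change -2.46, SE 0.51, adjusted p 0.00153). The values of Gsta1 and Gsta2 are uncertain, because the 2 genes are close copies and share sequence with other genes. The gene that shared most with Gsta1 was Gm3776 (82.9% of the 50-base stretches of Gsta1). For Gsta2 it was Gsta1 (44.8% of the stretches of Gsta2). Only 10.3% of the 50-base stretches of the Gsta1 transcript and 35.8% of those of Gsta2 occur in no other gene, and the reads had 50 bases. Their first 120 coding bases are shown because they are the same base for base, so that a read from this region does not tell the genes apart (GRCm38, chr9:78232240-78235116, plus strand, for Gsta1, and chr9:78338664-78341916, minus strand, for Gsta2, each spanning an intron).
Gsta1: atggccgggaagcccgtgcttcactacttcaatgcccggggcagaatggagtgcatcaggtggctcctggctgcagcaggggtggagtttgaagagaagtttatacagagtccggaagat
Gsta2: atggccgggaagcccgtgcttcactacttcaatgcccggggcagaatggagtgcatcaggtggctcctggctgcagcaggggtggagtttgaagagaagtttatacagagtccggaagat

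The mu class, 7 genes side by side on chromosome 3 (GRCm38, chr3:107895854-108045179), conjugates epoxides and quinones and had the highest summed level of the GST classes in both saline groups. Its summed level fell from 3211 ± 135 (SD, n = 3) to 1609 ± 587 (SD, n = 4) TPM in WT (1.996-fold) and from 5007 ± 1102 (SD, n = 3) to 1167 ± 283 (SD, n = 4) TPM in KO (4.29-fold). In WT 5 of the 7 genes were lower (3 with the WT saline pair averaged) and 2 (Gstm3 and Gstm6) were not called, and in KO 7 of 7 were lower. Gstm1 was 72.6 to 82.2% of the class in each library. With saline it had 2647, 2682 and 2430 TPM in WT and 3045, 4521 and 4571 TPM in KO. With ConA it had 1106, 1422, 1719 and 672 TPM in WT and 716, 665, 1122 and 915 TPM in KO. Each ConA liver was below each saline liver of its genotype (log2 fold change -1.15, SE 0.28, adjusted p 0.00648 in WT and -2.25, SE 0.21, adjusted p 4.40e-06 in KO). Gstm3 had 39.7–216 TPM in WT ConA, which overlapped the 151–200.4 TPM of WT saline, and it fell in KO from 134–547 to 55.7–112 TPM (log2 fold change -2.12, SE 0.42, adjusted p 0.00112). Gstm4 had the largest fall of the class in both genotypes, to 6.16–16.2 TPM in WT (-1.72, 0.000623) and 5.95–11.5 TPM in KO (-2.53, 1.63e-05). The other mu genes called lower had log2 fold changes of -1.200 (Gstm7), -0.79 (Gstm2) and -0.54 (Gstm5) in WT, and between -1.31 (Gstm6) and -1.14 (Gstm2) in KO. The calls of Gstm2 and Gstm5 in WT were lost with the alike saline pair averaged and in rescaled libraries.

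**Figure D2:**
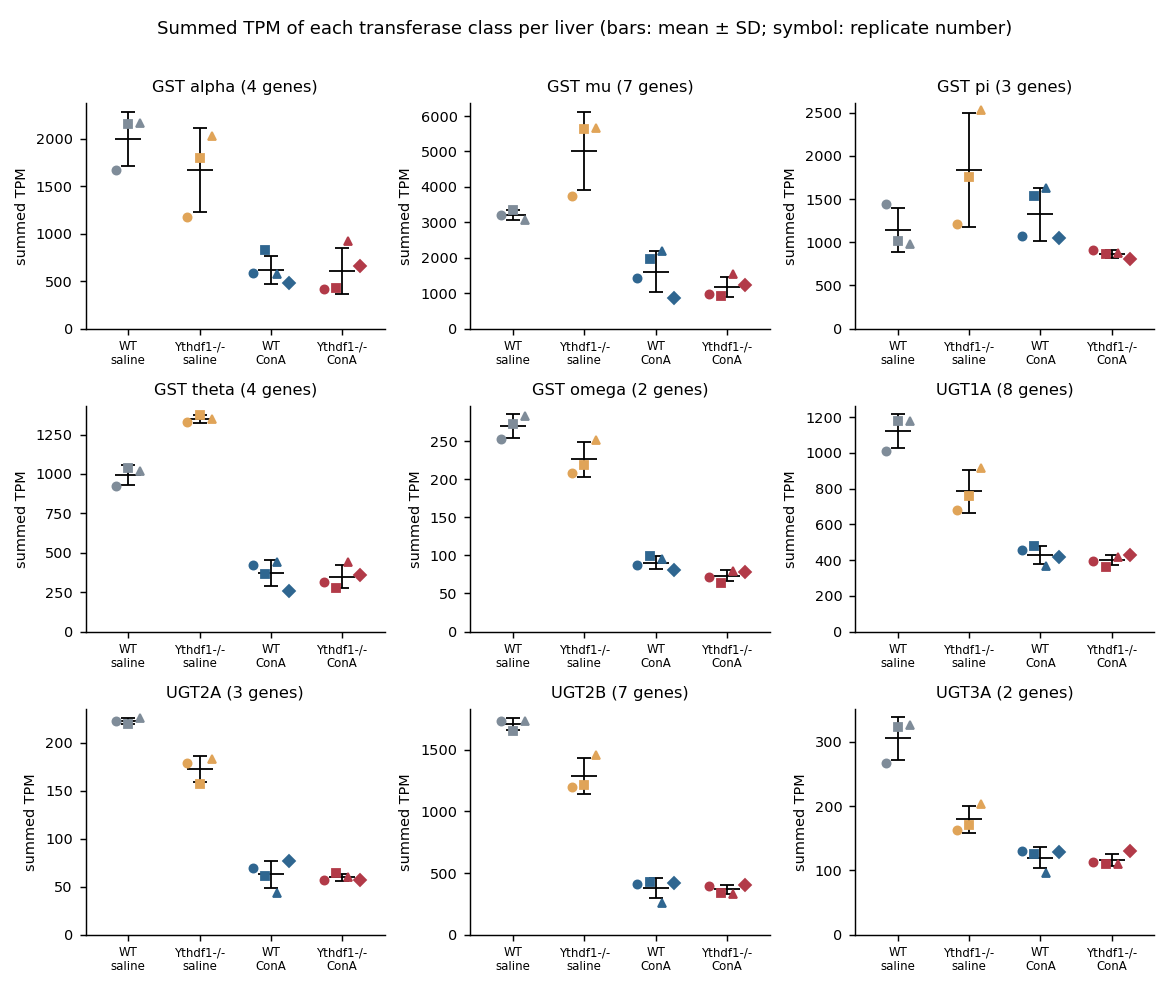
Summed TPM of each class in each liver (points; the symbol gives the replicate number) with the group mean and SD (bars), for the 9 classes with more than 1 gene, on linear axes from 0. The pi class is the one whose WT ConA livers overlap the WT saline livers, and the mu and theta classes are the ones whose KO saline livers all lie above the WT saline livers.

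The pi class was the GST class whose summed level did not separate ConA from saline in WT. Pi enzymes conjugate electrophiles, and mice carry Gstp1, Gstp2 and Gstp3 side by side on chromosome 19 (chr19:4035411-4059605). Of the 3 genes, 1 rose in WT and 2 were not called, and in KO 2 fell and 1 was not called. Gstp1 was 92.0 to 96.4% of the class in each library. It had 1384, 965 and 939 TPM in WT saline and 999.7, 1445, 1500.03 and 960.4 TPM in WT ConA, with overlapping groups and no call (log2 fold change 0.16, SE 0.21, adjusted p 0.563, 95% interval -0.32 to 0.63). In KO it went from 1132, 1652 and 2437 TPM to 848, 795, 812 and 755 TPM, without overlap (log2 fold change -1.05, SE 0.21, adjusted p 0.00123). The 4 KO ConA livers lay within a narrow range that was below each WT ConA liver and below each saline liver. Gstp3 had a lower level. It had 38.01, 34.5 and 32 TPM in WT saline and 37.5, 27.1, 49.5 and 32.1 TPM in WT ConA, which overlapped (0.04, adjusted p 0.8899). KO saline livers had 69.5, 89.5 and 68.7 TPM, higher than each liver of the other groups, and KO ConA livers 26.1, 30.4, 45.6 and 29.1 TPM (log2 fold change -1.21, SE 0.19, adjusted p 0.000193).

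Gstp2 was the one GST gene that rose. It had 18.1, 11.9 and 9.63 TPM in WT saline livers and 36.3, 63.2, 81.8 and 51.5 TPM in WT ConA livers. Each ConA liver was above each saline liver (log2 fold change 2.04, SE 0.28, adjusted p 0.000291), and the call held in each of the 16 alternative settings (log2 fold change 1.86 to 2.28). In KO livers it had 13.04, 13.4 and 22.4 TPM with saline and 36.7, 33.8, 11.4 and 23.5 TPM with ConA. There the low value of KO ConA replicate 3 overlapped the saline values and the difference was not called (log2 fold change 0.58, SE 0.35, adjusted p 0.1597), whereas it was called without that library.

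Gstp1 and Gstp2 are near-copies that reads of 50 bases separate only in part. Their coding sequences differ at 12 of 630 bases (98.1% identity), against 178 differing bases between Gstp1 and Gstp3 (71.7%), and 37.7% of the 50-base stretches of Gstp1 and 27.4% of those of Gstp2 occur in no other gene. Gstp2 made up 0.982 to 1.25% of the class in WT saline and 3.38 to 5.01% in WT ConA livers, so that a small share of Gstp1 reads given to Gstp2 would weigh on its value, and the size of that share is not known. Within the class the share of Gstp2 was 0.762 to 1.07% in KO saline and 1.31 to 4.03% in KO ConA livers. The first 120 coding bases show where a read could tell them apart, with the 6 differing bases in capitals (GRCm38, minus strand, chr19:4037314-4037863 for Gstp1 and chr19:4041608-4042165 for Gstp2, each across introns).
Gstp1: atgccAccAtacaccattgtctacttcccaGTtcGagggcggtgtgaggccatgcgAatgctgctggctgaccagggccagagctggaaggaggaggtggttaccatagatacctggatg
Gstp2: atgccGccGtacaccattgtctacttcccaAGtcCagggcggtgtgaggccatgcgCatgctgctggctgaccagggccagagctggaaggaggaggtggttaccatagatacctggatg

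The promoters of Gstp1 and Gstp2 hold the AP-1 motif, TGAGTCA, in the same surroundings. The motif was searched on both strands in the 250 bases before and 50 bases after each start (RefSeq, GRCm38.p6). It occurs in 5 of the 46 windows that matched 38 of the 42 genes (10.9%), the others being those of Gstm5, Ugt2a2 and Ugt2b37, and in 5.20% of all 32851 windows. The stretches around it are shown with the motif in capitals (minus strand, chr19:4037952-4038011 for Gstp1 and chr19:4042276-4042335 for Gstp2).
Gstp1: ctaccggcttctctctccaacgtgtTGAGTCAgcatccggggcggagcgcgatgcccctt
Gstp2: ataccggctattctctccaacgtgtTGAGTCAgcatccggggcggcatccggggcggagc
A match is a description of the sequence and does not show a bound factor. The other motifs searched occurred in the 46 windows as follows: the core of the antioxidant response element bound by Nrf2, TGACNNNGC, in 6.52% (12.4% of all windows), the AhR core GCGTG in 17.4% (32.4%), the C/EBP motif TTGCNNAA in 19.6% (10.8%), the STAT motif TTCNNNGAA in 6.52% (8.30%) and the HNF1 core GTTAATNAT in 6.52% (0.801%).

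The theta, omega, zeta and kappa classes were lower after ConA. Of their 6 genes tested, 6 were lower in WT and 6 in KO. Gstt1, which conjugates small halogenated compounds, had 626, 701 and 689 TPM in WT saline and 319, 262, 338 and 187 TPM in WT ConA (log2 fold change -1.31, SE 0.20, adjusted p 0.000469). In KO it went from 1007, 1027 and 921 to 219.7, 201, 323 and 240.1 TPM (log2 fold change -2.02, SE 0.16, adjusted p 1.23e-06). Gstt2 had the largest fall of all GST genes in both genotypes. It had 185, 182 and 181 TPM in WT saline and 38.2, 39.1, 59.9 and 38.7 TPM in WT ConA, and 199.5, 229.8 and 253 TPM in KO saline and 29.03, 25.4, 34.4 and 33.7 TPM in KO ConA. The groups were widely separated (log2 fold change -2.06, SE 0.17, adjusted p 1.43e-05 in WT and -2.86, SE 0.14, adjusted p 5.01e-08 in KO). Gstt3 fell from 112–155 to 29.9–64.9 TPM in WT (-1.53, 0.00105) and from 119–173 to 46.6–87.5 TPM in KO (-0.96, 0.00254). Gsto1, which reduces methylated arsenic compounds and protein-bound glutathione, fell from 253–284 to 80.4–98.8 TPM in WT (-1.57, 9.29e-06) and from 208–251 to 63.8–79.2 TPM in KO (-1.62, 1.02e-06). Gstz1, the maleylacetoacetate isomerase of tyrosine breakdown, fell from 586–709 to 207–268 TPM in WT (-1.44, 2.61e-05) and from 434–515 to 227–250.3 TPM in KO (-1.01, 1.49e-05). Gstk1, the mitochondrial and peroxisomal member, changed least of these in WT, from 234–266 to 102–127 TPM in WT (-1.09, 7.50e-05) and from 241–281 to 116–161 TPM in KO (-0.97, 8.72e-05).

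The UGT1A genes are built in an unusual way. Each has a first exon of its own, which gives the substrate specificity, and all share the exons that follow, within 1 locus on chromosome 1 (chr1:88055411-88220002). From the shared exon on, the first 700 bases compared were identical in the 8 transcripts, so that reads from there cannot be assigned to 1 gene. The junctions are shown because they mark the border between the own sequence (30 bases in capitals, ending in the first exon) and the shared sequence (30 bases in lower case, chr1:88215044-88215073, GRCm38, plus strand). The own parts lie at chr1:88212842-88212871 (Ugt1a1), chr1:88166874-88166903 (Ugt1a5), chr1:88139302-88139331 (Ugt1a6a), chr1:88107770-88107799 (Ugt1a6b) and chr1:88071649-88071678 (Ugt1a9).
Ugt1a1: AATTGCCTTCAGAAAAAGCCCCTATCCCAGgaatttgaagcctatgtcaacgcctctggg
Ugt1a5: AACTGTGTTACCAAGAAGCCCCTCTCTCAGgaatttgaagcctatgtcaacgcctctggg
Ugt1a6a: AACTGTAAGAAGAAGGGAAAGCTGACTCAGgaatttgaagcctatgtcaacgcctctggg
Ugt1a6b: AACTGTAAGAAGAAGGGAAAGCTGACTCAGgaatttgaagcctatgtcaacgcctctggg
Ugt1a9: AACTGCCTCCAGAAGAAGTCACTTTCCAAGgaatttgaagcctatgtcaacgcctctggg
Ugt1a6a and Ugt1a6b are the same in these 60 bases. Over the whole Ugt1a6a transcript, each 50-base stretch also occurs in transcripts that GENCODE vM21 assigns to Ugt1a7c. Of all 50-base stretches, those unique to the gene made up 19.8% for Ugt1a1, 36.0% for Ugt1a5, 0% for Ugt1a6a, 19.3% for Ugt1a6b and 38.0% for Ugt1a9. The levels of the single UGT1A genes therefore depend on how the authors divided shared reads. The 0% of Ugt1a6a rests on the gene assignment of GENCODE vM21. The gene set of the authors may assign these transcripts otherwise, so how uncertain Ugt1a6a is beside the others is not known.

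**Figure D3:**
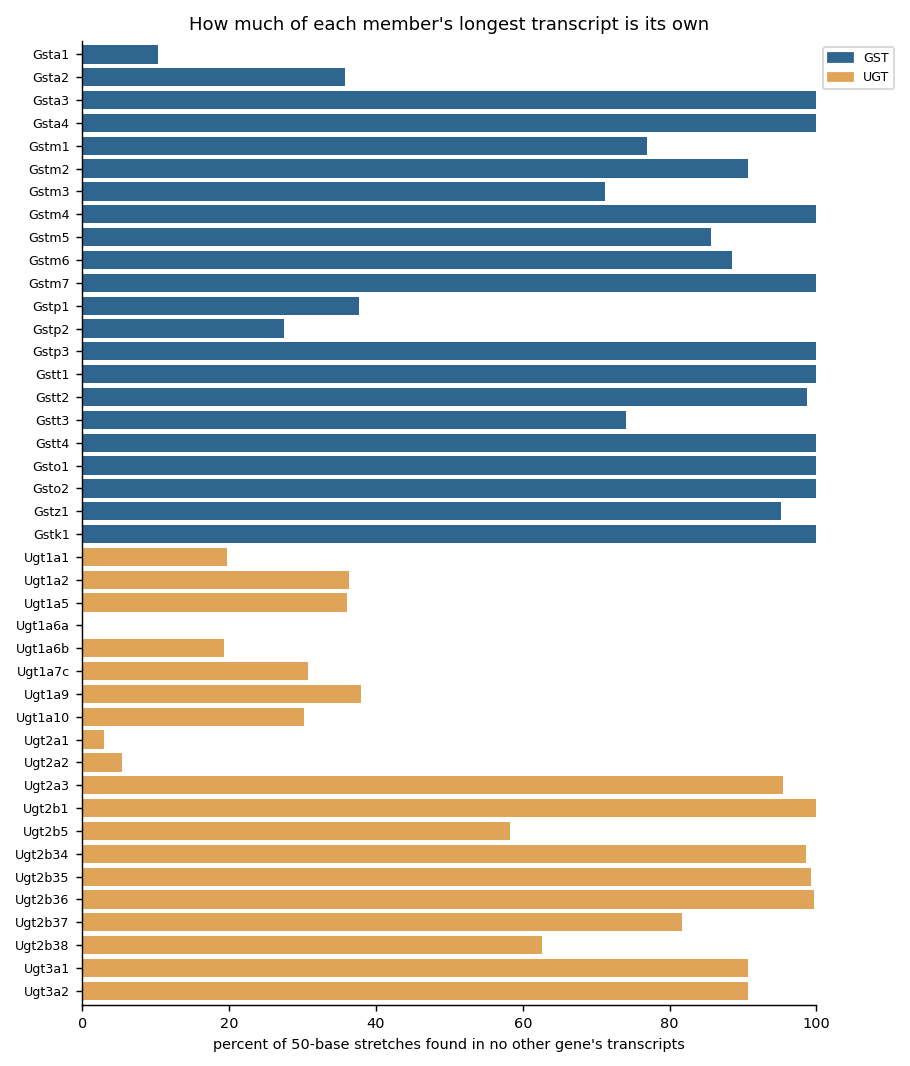
Share of the 50-base stretches of each gene's longest transcript (GENCODE vM21) that occur in no other gene, in percent, for the 22 GST (blue) and 20 UGT genes (orange). The UGT1A genes have 0 to 38.0%, Gsta1 10.3%, Gstp1 37.7% and Gstp2 27.4%, while most genes of the other classes exceed 70%.

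The summed UGT1A level was lower after ConA in both genotypes. It went from 1122 ± 97.8 (SD, n = 3) to 429 ± 49.4 (SD, n = 4) TPM in WT (2.62-fold) and from 785 ± 120.2 (SD, n = 3) to 401 ± 29.5 (SD, n = 4) TPM in KO (1.96-fold). In WT 4 of 5 genes were lower (3 with the WT saline pair averaged) and Ugt1a5 was not called, whereas in KO 1 of 5, Ugt1a6b, was lower and 4 were not called. Ugt1a6b, which glucuronidates phenols, was 52.9 to 89.0% of the family in each library. It had 705, 809 and 821 TPM in WT saline and 263, 315, 319 and 287 TPM in WT ConA (log2 fold change -1.39, SE 0.12, adjusted p 1.98e-05). In KO it had 560.4, 673 and 645 TPM with saline and 209, 195, 262 and 263 TPM with ConA (log2 fold change -1.43, SE 0.14, adjusted p 6.34e-06). The falls of this gene were thus close in size, and its difference between the genotypes was not called (-0.04, 95% interval -0.44 to 0.35).

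Ugt1a1, the bilirubin-conjugating enzyme, showed another pattern. It had 207, 248 and 245 TPM in WT saline and 110.04, 99.2, 26.96 and 95.7 TPM in WT ConA (log2 fold change -1.66, SE 0.43, adjusted p 0.00925). In KO it had 79.5, 60.05 and 171 TPM with saline and 126, 107, 107 and 114 TPM with ConA. The KO saline livers were low and spread, and the KO ConA livers lay between them, so that no fall was seen there (log2 fold change 0.27, SE 0.28, adjusted p 0.402). Ugt1a9, which glucuronidates phenols and fatty acids, had 54.3, 68.05 and 65.4 TPM in WT saline and 37.4, 30.02, 8.67 and 15.99 TPM in WT ConA (log2 fold change -1.59, SE 0.41, adjusted p 0.009498), but 18.4, 11.1 and 68.9 TPM in KO saline and 34.2, 31.5, 20.8 and 28.2 TPM in KO ConA (0.200, adjusted p 0.718). KO saline replicate 3 was the high liver for both genes. Without it, Ugt1a1, Ugt1a9 and Ugt1a6a were called higher after ConA in KO. Ugt1a5 had 33.5–40.1, 7.98–24.9, 8.99–38.99 and 15.6–20.4 TPM in the WT and KO saline and the WT and KO ConA groups. Ugt1a6a had 9.17–13.9, 3.72–7.02, 1.85–7.62 and 5.85–8.07 TPM in the same order, and its fall in WT (-1.06, adjusted p 0.0256) was lost with the alike saline pair averaged.

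The promoters of Ugt1a1, Ugt1a9 and the barely expressed Ugt1a10 hold the HNF1 core motif, and theirs are the 3 of the 46 windows that do. Ugt1a6b, Gsta4, Gstt2 and Ugt3a2 had no window, so their promoters were not searched for any of the motifs. HNF1 is a hepatocyte transcription factor. The stretches are shown with the match in capitals, which reads as the motif on the opposite strand (plus strand, chr1:88211890-88211949, chr1:88070660-88070719 and chr1:88055312-88055371).
Ugt1a1: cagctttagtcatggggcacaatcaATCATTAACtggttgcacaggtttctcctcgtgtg
Ugt1a9: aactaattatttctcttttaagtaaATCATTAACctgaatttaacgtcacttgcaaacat
Ugt1a10: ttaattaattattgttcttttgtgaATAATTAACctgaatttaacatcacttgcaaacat

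The UGT2 genes, which glucuronidate steroids and bile acids among other compounds, had the largest falls of all classes in WT. The summed UGT2B level, from 7 genes on chromosome 5 (chr5:86889770-87424203), was 1710 ± 49.5 (SD, n = 3) TPM in WT saline and 378 ± 80.2 (SD, n = 4) TPM in WT ConA, 4.53-fold lower. In KO it was 1291 ± 147 (SD, n = 3) and 369 ± 37.7 (SD, n = 4) TPM, 3.500-fold lower. Ugt2b5 had 722, 603 and 633 TPM in WT saline and 139, 149, 91.99 and 127 TPM in WT ConA (log2 fold change -2.37, SE 0.17, adjusted p 7.16e-06). In KO it had 517, 479 and 646 TPM with saline and 149.7, 115, 105 and 128 TPM with ConA (log2 fold change -2.13, SE 0.15, adjusted p 6.28e-07). Ugt2b36 fell from 554, 589 and 618 to 161, 169.7, 109 and 170.2 TPM in WT (log2 fold change -1.96, SE 0.17, adjusted p 1.79e-05) and in KO from 359, 419 and 428 to 152, 141, 152 and 181 TPM (log2 fold change -1.36, SE 0.12, adjusted p 3.88e-06), a difference between the genotypes that was not called (0.603, 0.101). Ugt2b35 had the largest fall of all 35 genes in WT. It went from 58.9, 54.5 and 61.5 to 8.06, 9.52, 4.05 and 7.28 TPM in WT (log2 fold change -2.90, SE 0.23, adjusted p 1.16e-05), and from 26.4, 32.7 and 43.4 to 9.83, 6.17, 2.51 and 4.48 TPM in KO (-2.47, 6.00e-05). Ugt2b34 came next in WT, from 204–249.6 to 19.7–44.7 TPM (-2.76, 2.45e-05), with 169–204 to 29.3–39.3 TPM in KO (-2.41, 9.47e-08). Ugt2b1 fell in both (-1.82, 0.000158 in WT and -1.38, 6.69e-06 in KO), and so did Ugt2a3 (-1.84, 4.42e-05 and -1.51, 7.78e-07), the UGT2A gene that these livers express.

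Ugt2b37 and Ugt2b38 were expressed at very low levels and did not follow the family. Ugt2b38 had 1.67, 0.18 and 0.19 TPM in WT saline, 2.18, 1.91, 0.98 and 5.25 TPM in WT ConA, 0.96, 0.05 and 1.13 TPM in KO saline and 2.25, 2.85, 0.5 and 0.93 TPM in KO ConA. It was called higher in WT, although the groups overlapped (log2 fold change 1.07, SE 0.40, adjusted p 0.04804), and the call was lost in 7 of 15 alternative settings, among them the average of the alike saline pair and the omission of WT saline replicate 2 or 3 or of WT ConA replicate 1, 2 or 4. Ugt2b37 had 0.83–2.65, 0.96–5.84, 0.86–4.39 and 0.53–2.1 TPM in the WT and KO saline and the WT and KO ConA groups, and its fall in KO (adjusted p 0.0473) was lost in 10 of 14 settings. Both genes share 50-base stretches with Ugt2b5 (15.2% of those of Ugt2b37 and 34.1% of those of Ugt2b38), which was far more abundant in each library.

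The UGT3A genes, whose enzymes use sugars such as N-acetylglucosamine, fell in both genotypes. Ugt3a1 had 61.01, 70.1 and 71.2 TPM in WT saline and 21.7, 21.9, 18.1 and 18.9 TPM in WT ConA (log2 fold change -1.69, SE 0.13, adjusted p 9.27e-06). In KO it had 37.1, 34.7 and 42.5 TPM with saline and 24.4, 23.2, 21.1 and 26.4 TPM with ConA (log2 fold change -0.66, SE 0.13, adjusted p 0.00101). Ugt3a2 fell from 205, 253 and 255 to 108, 103, 77 and 109 TPM in WT (log2 fold change -1.26, SE 0.16, adjusted p 0.000161), and from 126, 136 and 161 to 88.2, 87.04, 89.2 and 104 TPM in KO (log2 fold change -0.61, SE 0.12, adjusted p 0.00122). The ConA levels of both genes overlapped between the genotypes, and the saline levels did not.

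**Figure D4:**
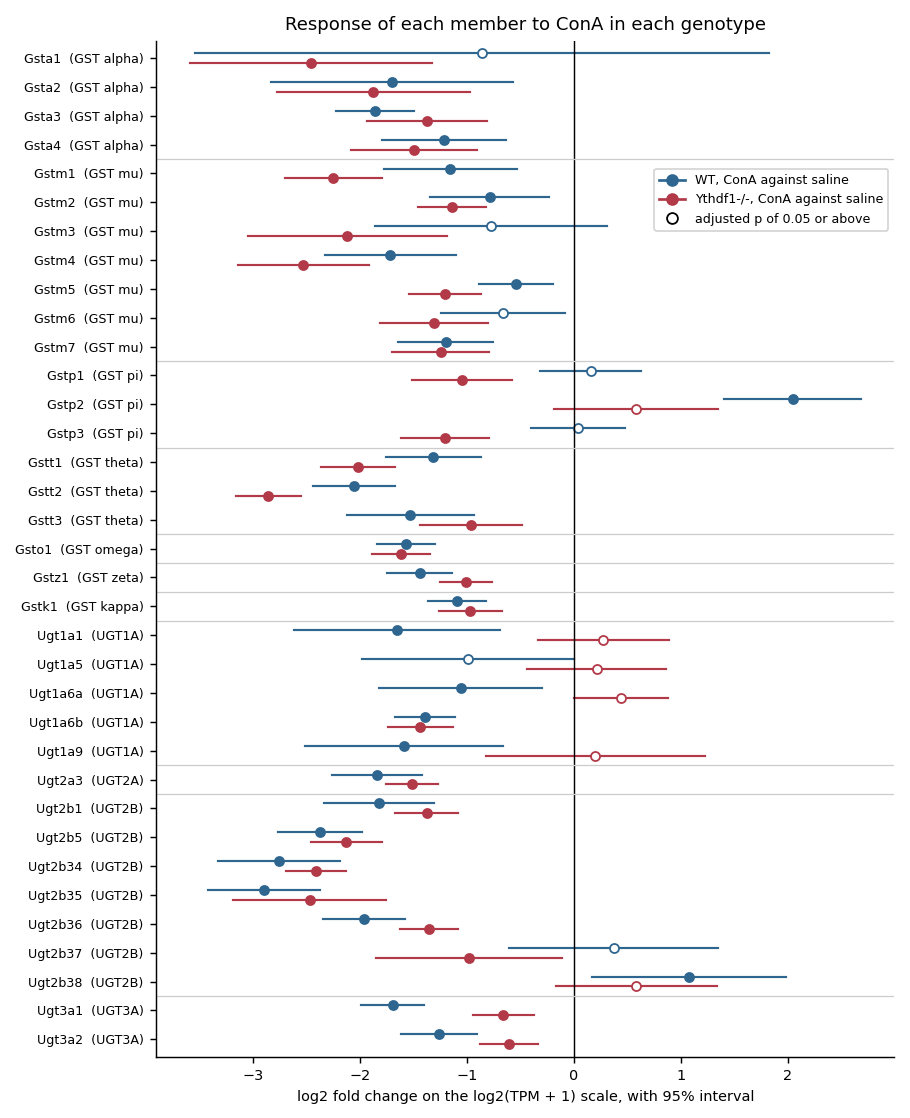
Log2 fold change of ConA against saline for each of the 35 genes, with its 95% interval, in WT (blue) and KO (red, labelled Ythdf1-/-); open circles have an adjusted p of 0.05 or above. Gstp2 lies at 2.04 in WT and 0.58 in KO, Ugt1a1 at -1.66 and 0.27, and Ugt2b35 at -2.90 and -2.47.

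The unstressed genotypes were compared next. In KO against WT saline livers, the GST genes that were called were mostly higher and the UGT genes that were called were lower. Of the 34 genes tested, 5 were higher in KO (Gsta1, Gstm1, Gstm6, Gstp3 and Gstt1) and 9 were lower (Gstz1, Ugt1a1, Ugt1a6a, Ugt2a3, Ugt2b1, Ugt2b35, Ugt2b36, Ugt3a1 and Ugt3a2), beside 6.3% of all 10459 genes called higher and 12.9% called lower. Among the 20 GST genes tested 5 were higher and 1 lower, and among the 14 UGT genes 0 were higher and 8 lower. These calls rest on 3 WT livers of which 2 were nearly alike. With that pair averaged 0 of the genes were called (beside 0.272% of all genes higher and 0.187% lower), and 17 of 35 had an unadjusted p under 0.05 with limma, as did 26.1% of all genes. The saline levels did not overlap for 8 genes that were higher (13.0% of all genes) and 13 that were lower in KO (29.2%).

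Gsta1 had the largest difference, with 4.26–12.4 TPM in WT and 27.9–79.7 TPM in KO saline (log2 fold change 2.47, SE 0.47, adjusted p 0.0209). Gstp3 was 1.09 higher on the log2 scale (adjusted p 0.00668, and 0.0586 with the pair averaged). Gstt1 had 626–701 TPM in WT and 921–1027 TPM in KO (0.55, 0.0181). Gstm1 was higher as well (0.62, 0.0424), although KO saline replicate 1, with 3045 TPM, was closer to WT than to the other 2 KO livers, and Gstm3 in that liver (133.9 TPM) was below each WT saline liver while the other 2 had 441.9 and 547 TPM. Gstm6 had 138–156 TPM in WT and 180.4–285 TPM in KO (0.59, 0.0444). Gsta3 went the other way and did not overlap, with lower levels in KO and an adjusted p of 0.06403.

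Among the UGTs that were lower in KO saline livers, Ugt3a1 had 34.7–42.5 TPM against 61.01–71.2 in WT (log2 fold change -0.81, SE 0.11, adjusted p 0.0111), and Ugt3a2 126–161 against 205–255 TPM (-0.75, 0.0181). Ugt1a1 had 60.05–171 against 207–248 TPM (-1.305, 0.0388). Ugt2b35 (-0.78, 0.0255), Ugt2b1 (-0.59, 0.0209), Ugt2b36 (-0.55, 0.0202) and Ugt2a3 (-0.37, 0.0339) were lower without overlap. Ugt1a6a was lower (-0.97, 0.0286), and so was the GST gene Gstz1 (-0.44, 0.0389). The summed UGT level of the KO saline livers was 2219–2764 TPM, below the 3238–3468 TPM of WT saline, and the summed GST level, 8340–12597 TPM, overlapped that of WT.

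Some markers of other cell types differed between the saline groups too. Of 7 sinusoidal endothelial markers tested, 6 were higher in KO saline (sums of 23.6–32.8 TPM in WT and 39.98–66.1 TPM in KO), and 3 of 6 stellate cell markers were higher (19.9–75.4 and 107–166 TPM). Of 12 genes of the pericentral hepatocytes, which lie around the central vein and hold much of the drug metabolism, 6 were lower in KO saline, among them Cyp2e1 (-0.82, adjusted p 0.0267), with sums of 11764–15753 TPM in WT and 7126–9430 TPM in KO. Beside these counts stand 6.3% of all genes called higher and 12.9% called lower, and with the WT saline pair averaged 0 genes of the 3 lists were called by limma (adjusted p of Cyp2e1 0.114). The hepatocyte marker sums overlapped. Of the other lists, 0 of 8 Kupffer cell and 0 of 5 neutrophil markers were called, and 1 of 5 cholangiocyte markers was higher. Of 12 genes of periportal hepatocytes, 1 was higher and 2 were lower. With the pair averaged, 0 genes of these other lists were called by limma. The part of the marker differences in the transferase differences was not tested.

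After ConA few differences between the genotypes were seen. In KO ConA against WT ConA livers 0 of the 35 genes were called by limma, beside 0.342% of all 10519 genes called higher and 0.0856% called lower, and 5 genes had an unadjusted p under 0.05 (16.7% of all genes did): Gstp1, Gstp2, Gstt2, Gsto1 and Ugt1a6b, all lower in KO. Gstp1 had 960.4–1500.03 TPM in WT and 755–848 TPM in KO (log2 fold change -0.58, SE 0.16, adjusted p 0.115). Gstp2 had the largest difference of the 5, with 36.3–81.8 and 11.4–36.7 TPM (log2 fold change -1.18, SE 0.34, adjusted p 0.127). Of 17 alternative settings of limma, 1 called it, the fit of all 14 libraries (adjusted p 0.0484), and the adjusted p ranged up to 0.257. The groups did not overlap for Gstp1, Gstt2 (38.2–59.9 and 25.4–34.4 TPM) and Gsto1 (80.4–98.8 and 63.8–79.2 TPM), 3 genes lower in KO beside 4.11% of all genes, and for 0 genes higher in KO beside 6.37%. For many genes the intervals are wide. That of Ugt1a1 ran from -0.18 to 1.43 and that of Gstm1 from -1.07 to 0.12, so that a difference of 1 on the log2 scale lies within each of them.

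The interaction asks whether the response to ConA differed between the genotypes, and it uses the same libraries as the comparisons above. It was called for 3 of the 35 genes: Ugt3a1, which fell less in KO (1.03, SE 0.17, adjusted p 0.0115), and Gstp1 (-1.203, SE 0.33, adjusted p 0.0481) and Gstp3 (-1.24, SE 0.29, adjusted p 0.0332), which fell in KO and not in WT. Over all 11327 genes 2.64% were called in the direction of Ugt3a1 and 2.14% in that of the pi genes. Ugt1a6a (1.502, 0.05303), Gstt2 (-0.800, 0.05303), Ugt1a1 (1.93, 0.0617) and Ugt3a2 (0.65, 0.0694) lay just beyond the threshold. The levels show where each difference sat. For Ugt3a1 and Gstp3 the genotypes differed with saline and overlapped with ConA, and for Gstp1 the levels overlapped with saline and did not overlap with ConA, where the difference was not called. With the alike WT saline pair averaged 0 of the 3 were called (Ugt3a1 adjusted p 0.0545, Gstp3 0.104, Gstp1 0.135), beside 0.165% of all genes called higher and 0.078% lower, and 13 of the 35 genes had an unadjusted p under 0.05, as did 18.7% of all genes. Without the third replicate of both ConA groups, a setting added once the values were known, 8 genes were called, 2 of them among these 3, and the share of all genes called rose as well, to 10.3% higher and 3.84% lower. The call of Gstp1 was lost in 17 of 23 alternative settings, that of Gstp3 in 9 and that of Ugt3a1 in 3.

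**Figure D5:**
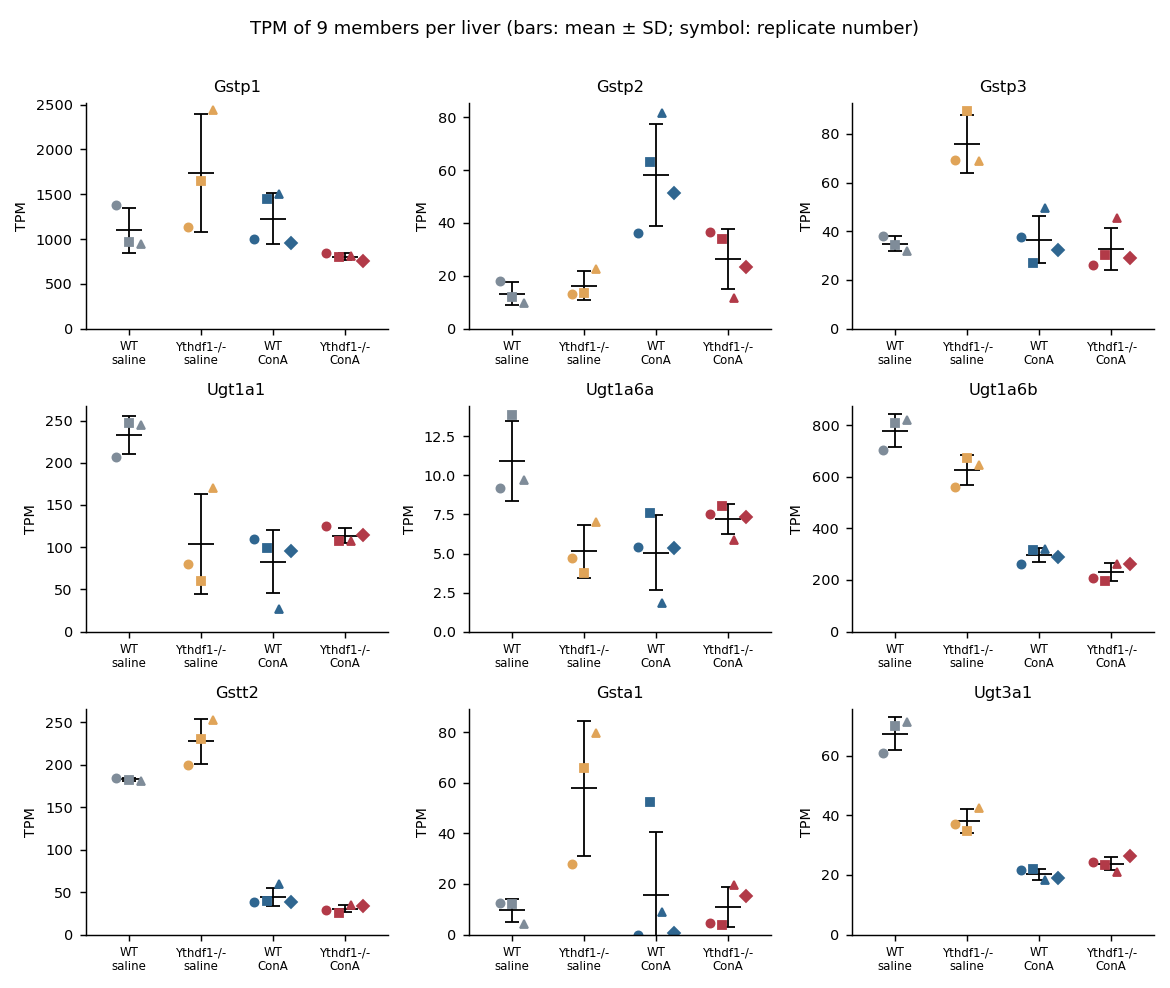
TPM of 9 genes in each liver (points; the symbol gives the replicate number) with group mean and SD (bars), on linear axes from 0; the SD bar of Gsta1 in WT ConA is cut at 0. Gstp2 rises in the 4 WT ConA livers to 36.3 to 81.8 TPM, Gstp1 is lowest in the 4 KO ConA livers, and Ugt1a1 and Ugt3a1 are lower in saline livers of KO than of WT mice.

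Genes that supply the cofactors were called in both directions. Of all genes tested, 31.0% were lower and 22.0% higher after ConA in WT (24.9% and 17.1% with the WT saline pair averaged), and 30.7% lower and 33.9% higher in KO. Of 20 genes tested that make or recycle glutathione, 12 were lower and 3 higher after ConA in WT (10 and 3 with the pair averaged), and 8 lower and 6 higher in KO. The counts in KO are not far from the shares of all genes. Cth, which makes the cysteine for glutathione from cystathionine, went from 519–824 to 46.4–116 TPM in WT (-3.19, adjusted p 3.70e-05) and from 555–610.4 to 37.5–60.6 TPM in KO (-3.54, 2.56e-08). Chac2, a glutathione-degrading enzyme, fell as well (-2.63 and -2.305), and so did Ahcy, which releases homocysteine (-1.33 and -1.56). Of 13 genes that supply UDP-glucuronic acid to the UGTs, 6 were lower and 4 higher in WT (6 and 3 with the pair averaged), and 6 lower and 5 higher in KO. Ugp2, which makes UDP-glucose, fell (-1.605, 2.77e-05 in WT and -0.99, 0.000173 in KO), whereas Slc35b1, a nucleotide transporter of the endoplasmic reticulum, rose (1.66 and 1.74), and Pgm2 rose from low levels (1.41 and 1.45). Among the exporters of conjugates, 5 of 8 tested were lower and 1 higher in WT (the same counts with the pair averaged), and 5 of 10 lower and 2 higher in KO. Abcc2, which pumps bilirubin glucuronide and glutathione conjugates into bile, fell from 39.2–40.5 to 7.15–10.5 TPM in WT (-2.01, 8.52e-06) and from 20.9–26.2 to 6.99–10.8 TPM in KO (-1.43, 2.36e-05). With saline it was lower in KO livers (-0.69, 0.0138). Abcc3, the exporter towards blood, fell less in KO (-0.64) than in WT (-1.41; interaction 0.76, 0.0457), and Abcc6 fell in both (-1.83 and -1.76). With the WT saline pair averaged, the saline difference of Abcc2 (adjusted p 0.0795) and the interaction of Abcc3 (0.129) were not called.

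Of 23 regulators of conjugation genes tested, 10 were lower and 5 higher in WT (8 and 5 with the pair averaged), and 6 lower and 8 higher in KO, beside 31.0% lower and 22.0% higher of all genes in WT and 30.7% and 33.9% in KO. The counts in KO and the higher ones in WT are thus near the shares of all genes. Nr1i3, the gene of the nuclear receptor CAR, which drives many GST and UGT genes, fell from 195–196 to 4.81–6.28 TPM in WT (-4.95, adjusted p 3.38e-08) and from 100.1–126 to 3.25–5.02 TPM in KO (-4.45, 5.90e-09), and it was lower in KO with saline (-0.78, 0.0105, and 0.0711 with the pair averaged). Cebpb, an inflammation-induced factor, rose (1.17 and 0.87). Maff, a small Maf protein that pairs with Nrf2, rose from 7.02–9.41 to 26.4–35.1 TPM in WT and from 3.33–6.62 to 50.95–86.2 TPM in KO. It was the gene of this list that was called between the ConA groups (1.098, adjusted p 0.0369), and its interaction was called too (1.89, 0.0114, and 0.04596 with the pair averaged). Of the reference targets of Nrf2 and AhR, 5 of 10 were lower and 3 higher in WT (the same counts with the pair averaged), and 5 of 12 were lower and 4 higher in KO, which in KO is not far from the shares of all genes. Nqo1 fell (-1.75 and -1.85) and Cyp1a2, an AhR target, fell (-1.79 and -2.08), while Hmox1 rose from 5.32–10.9 to 142–231 TPM in WT (4.44, 1.08e-06) and from 4.53–7.83 to 227–364 TPM in KO (5.29, 6.64e-09).

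In other drug-metabolizing families more genes were called lower than higher, beside 31.0% of all genes lower and 22.0% higher in WT and 30.7% and 33.9% in KO. Of 56 cytochrome P450 genes of families 1 to 4 tested, 43 were lower and 2 higher after ConA in WT (43 and 1 with the pair averaged; median log2 fold change -1.27), and 42 of 56 were lower and 3 higher in KO (median -1.21). Of the sulfotransferase and Papss genes, which transfer and supply activated sulfate, 7 of 16 were lower and 2 higher in WT (7 and 1 with the pair averaged; median -1.59), and 8 of 18 were lower and 0 higher in KO (median -0.85). The medians of the transferases (-1.31 in both genotypes) lay close to that of the P450 genes, and no test was made of the difference between these families.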

How the data were processed

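RNA of 14 mouse livers (kit of TIANGEN) was sequenced on a BGISEQ-500 as single reads of 50 bases. The authors deposited 1 table of TPM per library, with 17656 genes. The submitters' processing notes name Bowtie2, RSEM 1.3.1 and GRCm38.p6, whereas the paper's methods name STAR, HTSeq and edgeR. How shared reads were divided between near-identical genes is therefore not known, and so is the depth, for which no interval can be given. The labels number the libraries of each group, and the paper's methods describe the samples of a group as biological replicates. Genes with at least 1 TPM in as many libraries as the smaller group holds were tested on log2(TPM + 1) with limma 3.58.1 (R 4.3.3; trended variance, moderated test, only the libraries compared, the 4 groups for the interaction) and Benjamini-Hochberg adjustment over all genes tested. The fold changes are on this scale and understate changes of low genes. The script was tested on simulated data.

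Genes were named by rule: each transferase that passed the filter, and from each related list the 3 genes with the smallest p for ConA in WT and those called between the ConA groups. Members and lists were chosen with earlier results of these data known. Alternatives were another pseudocount (0.1), filter (5 TPM or none), scaling, robust variance, fold threshold, all 14 libraries, the replicate number as a block, the averaged WT saline pair and each library left out. Sequences and transcript lengths came from GENCODE vM21 (GRCm38), promoters from RefSeq (GRCm38.p6).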

Additional observations from a re-analysis of the deposited data

Results flagged for a closer look

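In groups of 4 livers, the highest or lowest value was checked for its distance from the other 3. Of 70 combinations of a gene and a ConA group, 5 had a value that stood apart by Dixon's criterion, where chance gives about 1 in 20, and 4 of the 5 were in WT ConA replicate 3. In that liver Ugt1a1 (26.96 TPM, the others 95.7–110.04), Ugt2b1 (30.87 TPM, the others 54.4–60.6) and Ugt2b36 (109.02 TPM, the others 161–170.2) were low, and Gstt2 (59.94 TPM, the others 38.2–39.1) was high. This is the library with lower values for longer transcripts, and the part of that in these values was not tested. Ugt3a2 was high in KO ConA replicate 4 (103.56 TPM, the others 87.0 to 89.2).

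The response to ConA differed between the genotypes by the interaction test of limma for 3 genes. The difference of the log2 fold changes (KO minus WT) was 1.03 for Ugt3a1 (adjusted p 0.0115), -1.20 for Gstp1 (0.0481) and -1.24 for Gstp3 (0.0332). The call of Gstp1 was lost in 17 of 23 alternative settings, that of Gstp3 in 9 of 23 and that of Ugt3a1 in 3 of 23.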

How the results depend on the processing

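For the 35 transferases the calls of ConA against saline were stable in number, with 23 to 29 called in WT (main 28) and 28 to 31 in KO (main 29) when 1 library was left out, and counts within 1.5 times the main count in the other settings. In KO against WT saline the 14 calls became 8 without a filter, 3 at a log2 fold change of at least 1, 3 with all 14 libraries and 0 with WT saline replicates 2 and 3 averaged. They ranged from 0 to 20 when 1 library was left out, with 0 without WT saline replicate 2 or 3, 5 without KO saline replicate 1 and 7 without KO saline replicate 2. The 0 calls between the ConA groups became 1 with all 14 libraries and stayed 0 with each library left out (0 to 0). The 3 interaction calls became 5 with a filter at 5 TPM, 1 without a filter, 0 with the saline pair averaged and 8 without the third replicate of both ConA groups, and they ranged from 0 to 6 when 1 library was left out. The lowest, 0, came without WT saline replicate 2 or 3. There was 1 call each without KO saline replicate 1 or 2 or KO ConA replicate 2 or 4, 5 without KO saline replicate 3 or WT ConA replicate 1 or 3, and 6 without WT ConA replicate 4. The causes were not tested. Of 2984 fits of single genes, 2762 kept the side of the threshold, 55 passed it newly and 167 no longer passed it. In 80 the sign differed, and in 0 of these was the gene called either way. Rescaling the libraries moved the median log2 fold change of all genes by -0.11 in the interaction and by at most 0.08 elsewhere. Rescaling changed the split of calls over all genes, from 2368 higher and 3336 lower to 2955 and 3097 in WT, from 659 and 1350 to 744 and 771 with saline, and from 36 and 9 to 12 and 13 with ConA.

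The labels do not say whether the replicate numbers pair the livers, and the correlations do not settle it. Correlations of same-numbered libraries were -0.03, 0.15 and -0.19 (WT), 0.11, -0.05 and 0.06 (KO), 0.34, 0.23 and -0.0022 (saline) and -0.0071, 0.13, 0.41 and 0.11 (ConA). In these comparisons 2 of 6, 3 of 6, 3 of 6 and 2 of 8 libraries correlated best with their own number. With the replicate block the counts were 27, 30, 18 and 0 in these comparisons and 2 for the interaction. The depth of the libraries is unknown, and close copies limit Gsta1, Gsta2, Gstp1, Gstp2 and the UGT1A genes.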

Other observations

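Of 6 microsomal and related glutathione transferases tested, 3 were higher and 2 lower after ConA in each genotype by limma, with the same counts in WT when WT saline replicates 2 and 3 were averaged. Beside these counts stand 22.0% of all genes higher and 31.0% lower in WT (17.1% and 24.9% with the pair averaged), and 33.9% and 30.7% in KO. Mgst1, the microsomal enzyme of hepatocytes, fell from 6375–6696 to 2906–4680 TPM in WT (-0.85, adjusted p 0.00317) and from 5516–5957 to 2370–2925 TPM in KO (-1.102, 2.23e-05). Mgst3 fell more in KO, from 86–128 to 13.02–27.4 TPM (-2.44), than in WT, from 44.1–45.4 to 16.6–29.3 TPM (-1.09; interaction -1.36, adjusted p 0.0382), and it was higher in KO saline livers (1.13, 0.0114). Neither call remained with the pair averaged (adjusted p 0.106 and 0.0711). Clic4, a chloride channel protein, rose (1.56 in WT and 2.65 in KO).

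Of 12 genes of pericentral hepatocytes, 10 were lower after ConA in WT (9 with the pair averaged; 31.0% of all genes, and 24.9% with the pair averaged), and in KO 5 of 10 tested were lower and 1 higher (30.7% and 33.9% of all genes). Cyp2e1, a pericentral cytochrome P450, was at 7564–9759 TPM with saline in WT and at 4005–6115 in KO, and at 1916–2817 and 2537–3293 after ConA (interaction 1.17, adjusted p 0.02797, and 0.0963 with the pair averaged). Of 12 periportal genes, 7 were lower and 1 higher in WT (6 and 1 with the pair averaged) and 8 lower and 1 higher in KO. The zones were not compared by a test. Pck1, of gluconeogenesis, fell (-2.21 and -2.598), and Sdsl, a serine dehydratase-like gene, rose (1.64 and 1.301).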
